A study of Mus musculus with 4 samples.

Results

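The cholesterol module followed here holds 28 mouse genes of cholesterol synthesis, its control, and the transport, storage and export of sterol, picked by symbol from 32227 listed genes (32200 distinct symbols). It comprises 7 genes of the mevalonate part, 11 that lead from squalene to cholesterol, 5 of the SREBP control system and 5 of sterol transport, storage, export and receptor turnover. All 28 had at least 10 unique molecular identifiers (UMIs, each standing for 1 captured transcript) in every library. Dissociated cells of the stomach corpus of wild-type C57BL6/J mice, 6 to 7 weeks old, were profiled by 3′ single-cell RNA sequencing in 4 libraries, 1 per group, with 25000 cells loaded in each. The untreated group received PBS. The other groups received a single oral dose of 350 mg/kg of L635, a compound toxic to acid-secreting parietal cells, and were sampled after 1 day, after 3 days, or after 3 days with amphiregulin (AREG), a ligand of the EGF receptor. The dose, route and schedule of AREG, and the number of mice behind each library, are not stated in these sources.

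Cells make cholesterol from acetyl-CoA through mevalonate, isoprenoids and squalene. When sterol in the endoplasmic reticulum is low, the escort protein Scap carries the transcription factors SREBP1 and SREBP2 to the Golgi, where they are cleaved and then switch on the synthesis enzymes; when sterol is high, Insig proteins hold the complex back and LXR receptors switch on exporters such as Abca1 and the receptor-degrading ligase Mylip. The gastric corpus holds pit (surface mucous), mucous neck, parietal, chief, endocrine and tuft cells, which differ greatly in membrane and secretory load.

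With 1 library per group no difference has a replicate check, so no test was made. Every interval below is a 95% interval for counting error only. Levels are in CPM, UMIs of a gene scaled to 1000000 UMIs, and a difference is the log2 ratio of CPM + 1, with intervals from the count ratio without the 1. A gene was counted as higher or lower at 2-fold, among genes with at least 10 UMIs over both libraries.

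Promoters are shown because 15 of the 18 synthesis enzymes and 8 of the 10 other genes have a RefSeq window (build GRCm38.p6), and most enzymes had ratios of one sign in several comparisons below. Capitals mark, on either strand, the sterol response element TCACNCCAC, the CCAAT box and the GC box GGGCGG; none of these motifs contains another. Each stretch is the 250 bases before the annotated start, 5′ to 3′ on the gene's strand: Hmgcs1, the enzyme that makes HMG-CoA, at chr13:119690101-119690350 (plus strand); Mvk, mevalonate kinase, at chr5:114444019-114444268 (plus strand); Insig1, the sterol-regulated retention protein, at chr5:28071162-28071411 (plus strand); and Abca1, the exporter that was lower where most enzymes were higher, at chr4:53159896-53160145 (minus strand).
Hmgcs1: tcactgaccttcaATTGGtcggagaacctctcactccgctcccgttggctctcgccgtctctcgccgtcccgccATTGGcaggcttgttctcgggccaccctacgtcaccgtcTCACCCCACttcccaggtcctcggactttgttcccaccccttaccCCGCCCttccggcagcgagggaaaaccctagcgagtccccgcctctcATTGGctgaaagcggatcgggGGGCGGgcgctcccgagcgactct
Mvk: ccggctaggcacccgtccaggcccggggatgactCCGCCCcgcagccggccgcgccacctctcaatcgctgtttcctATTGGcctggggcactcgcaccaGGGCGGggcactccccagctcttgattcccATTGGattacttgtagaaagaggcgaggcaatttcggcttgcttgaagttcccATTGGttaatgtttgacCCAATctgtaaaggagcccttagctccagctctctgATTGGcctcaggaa
Insig1: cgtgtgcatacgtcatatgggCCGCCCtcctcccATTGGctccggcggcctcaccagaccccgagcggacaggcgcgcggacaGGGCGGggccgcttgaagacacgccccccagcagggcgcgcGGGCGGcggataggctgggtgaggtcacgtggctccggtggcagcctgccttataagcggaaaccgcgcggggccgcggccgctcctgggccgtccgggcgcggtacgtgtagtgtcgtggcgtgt
Abca1: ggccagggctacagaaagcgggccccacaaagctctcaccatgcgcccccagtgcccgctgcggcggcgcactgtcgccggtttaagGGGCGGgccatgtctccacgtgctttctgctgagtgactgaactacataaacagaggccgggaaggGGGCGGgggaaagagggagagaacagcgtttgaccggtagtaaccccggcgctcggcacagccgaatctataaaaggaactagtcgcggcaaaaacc
The exact letters TCACNCCAC occurred in 1 of 23 genes of the module with a window, Hmgcs1, and in 1.22% of the 27025 genes with a window. A CCAAT box was found for 20 of 23 (87.0%), against 37.5% of all genes and 40.7% of the 5771 genes that averaged at least 10 CPM here. A GC box was found for 21 of 23 (91.3%), against 35.4% of all genes and 66.7% of those 5771. Among the 4 printed, the Abca1 stretch holds no CCAAT box. Over the module the box was found for 14 of 15 enzymes and 6 of 8 other genes. Mylip and Soat1 have it, and the enzyme Acat2 does not. These are letter matches and not binding sites; Dhcr7, Insig2, Pmvk, Scap and Srebf1 have more than 1 window and were counted once.

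The libraries held 13897, 3926, 7986 and 12923 cells for the untreated, day 1, day 3 and AREG groups in turn, with medians of 2507, 2724.5, 3013.5 and 2685 UMIs per cell, and 56007532 to 98893436 UMIs in all. Of 38732 cells, 68 formed an endothelial cluster and were left out; the other 38664 are called epithelial here, although 202 of them, 159 from day 1, lay in clusters whose markers gave no name. In all, 8 of 38724 barcodes occurred in more than 1 library. Clusters were named from marker genes as parietal-like, pit-like, chief-like, proliferating-like, endocrine-like and tuft-like; a cluster pair that shared neck and chief markers is called Muc6/Pgc, and clusters led by Krt7 and Msln are called Krt7/Msln, with 1063 day 1 cells, and shallow Krt7/Msln, with 862 day 1 cells (22.1% of that library) at a median of 779.5 UMIs. The day 1 library held 304 parietal-like cells (7.80% of its epithelial cells, against 31.6% in the untreated library) and 9 chief-like cells. Macrophage and dendritic marker genes summed to between 3.2 and 6.7 CPM in the parietal-like and pit-like cells of all 4 libraries. Pit markers summed to 40411 CPM in untreated and 27443 CPM in day 1 parietal-like cells, and to 433481 and 322548 CPM in pit-like cells. RNA of other cells caught with a cell was not removed, and its part in the values below was not tested.

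Over all epithelial cells, most synthesis enzymes were higher in every L635 library than in the untreated one. The 18 enzymes summed to 928, 1332, 1462 and 1351 CPM in untreated, day 1, day 3 and AREG day 3 cells. Day 1 against untreated gave a log2 ratio of 0.52 (interval 0.50 to 0.54; 0.54 without the cells of unnamed clusters), day 3 against day 1 0.13 and AREG day 3 against day 3 -0.11. All values listed per library below follow that order. Krt7/Msln cells held 51.7% of the epithelial UMIs of day 1, against 0.317% untreated (12 cells). Pooled day 1 values thus rest largely on a class that was scarce in the other libraries, and cannot be read as a change within shared classes alone. The enzyme sum of these day 1 cells was 1211 CPM, below the pooled 1332 CPM. The ratio with class makeup held at that of the untreated library, which leaves this class out, is given at the end.

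**Figure D1:**
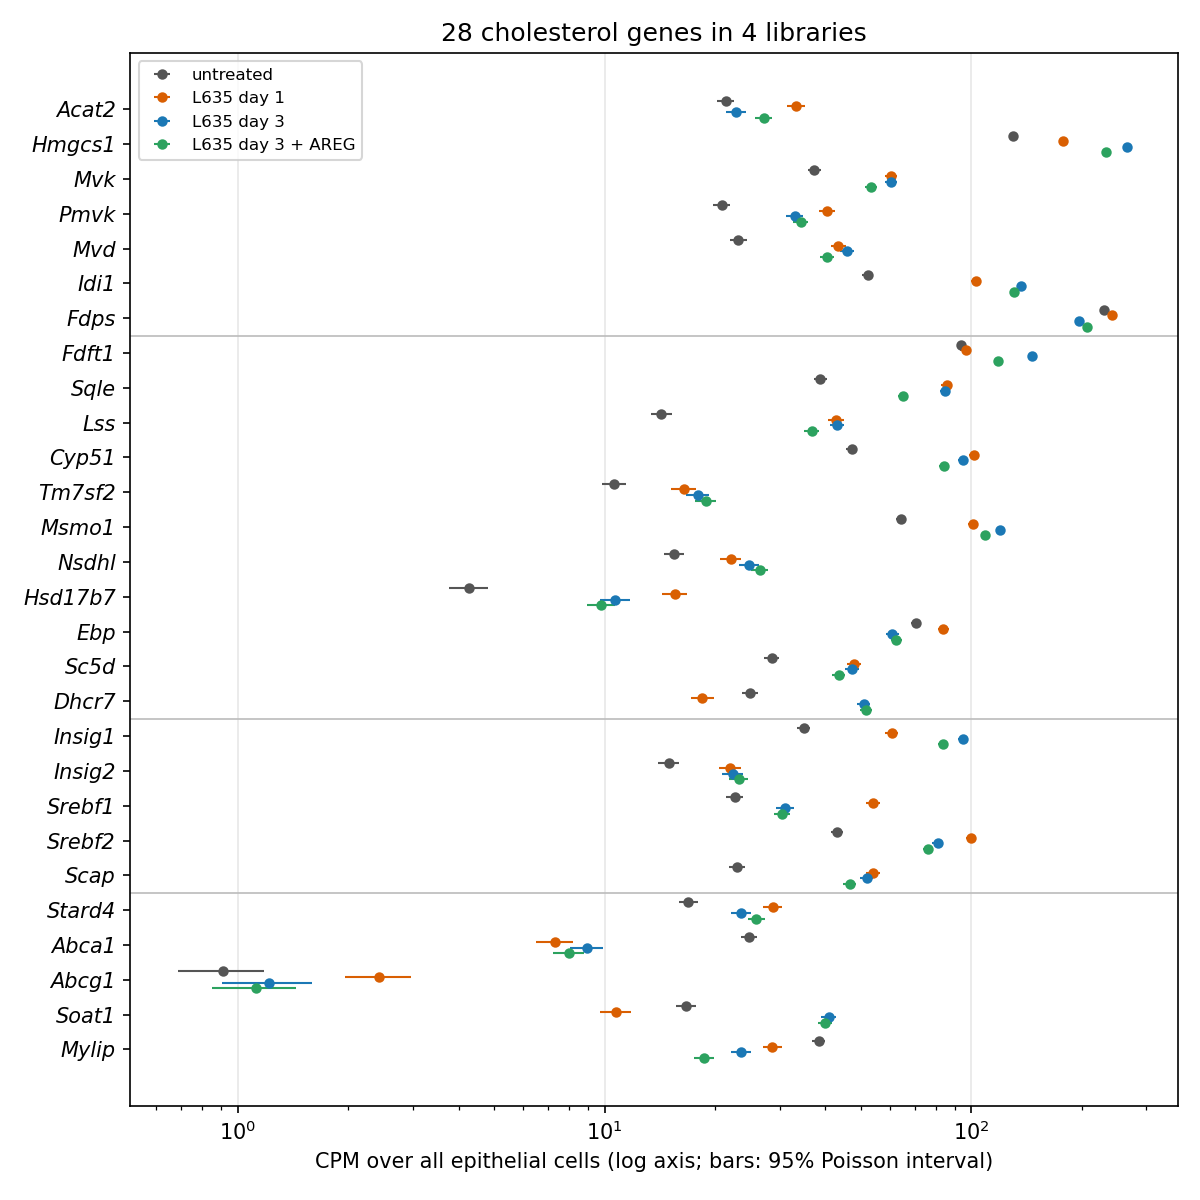
CPM of the 28 genes over all epithelial cells (x axis, log scale), 1 point per library with its 95% Poisson interval; grey lines part the mevalonate part, squalene to cholesterol, SREBP control and transport groups. Most enzymes have the untreated point on the left, while Abca1 and Mylip have it on the right.

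In the mevalonate part, Hmgcs1 stood at 130.2, 178, 266 and 234 CPM. Idi1, which isomerises isopentenyl diphosphate, stood at 52.1, 103, 136 and 131 CPM. Both were lowest in the untreated library and highest on day 3. Fdps, which makes farnesyl diphosphate, stood at 230.3, 242, 197 and 206 CPM, lower in both day 3 libraries than in the untreated one. Mvk, Pmvk and Mvd, which phosphorylate and decarboxylate mevalonate, were 0.68, 0.92 and 0.88 (log2) higher on day 1 than untreated. Acat2, the cytosolic thiolase that starts the pathway, was 0.61 (log2) higher on day 1 and stood near its untreated level on day 3 (22.9 against 21.4 CPM).

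Between squalene and cholesterol, Hsd17b7, Lss, Sqle and Cyp51 differed most on day 1. Sqle, squalene epoxidase, stood at 38.8, 85.7, 84.8 and 65.1 CPM. Lss, which closes the sterol rings, stood at 14.3, 42.8, 42.99 and 36.7 CPM. Hsd17b7, a sterol ketoreductase, stood at 4.27, 15.5, 10.7 and 9.79 CPM. In each the untreated library was lowest. Cyp51, the lanosterol demethylase, stood at 47.1, 102, 94.9 and 83.96 CPM and Msmo1, the C4 methyl oxidase, at 64.5, 101, 119.8 and 109 CPM. Fdft1, squalene synthase, was highest on day 3, at 93.97, 96.4, 146 and 118 CPM. Dhcr7, which reduces 7-dehydrocholesterol in the last steps, was the only enzyme below its untreated level on day 1, at 24.9, 18.5, 50.8 and 51.7 CPM. Nsdhl, Tm7sf2 and Sc5d, which work on the sterol ring after lanosterol, were 0.49, 0.59 and 0.73 (log2) higher on day 1. Ebp, the sterol isomerase, stood at 70.6, 83.8, 60.9 and 62.4 CPM, below its untreated level in both day 3 libraries.

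In the SREBP control system, Srebf2, the gene of SREBP2, stood at 43.02, 100.03, 80.9 and 76.02 CPM. Srebf1 stood at 22.6, 53.9, 31.1 and 30.5 CPM and Scap at 22.96, 53.9, 51.8 and 46.6 CPM. All 3 were highest on day 1. Insig1 stood at 34.9, 60.7, 95.1 and 83.5 CPM, highest on day 3, and Insig2 varied less, at 14.9, 21.99, 22.3 and 23.2 CPM.

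Among the genes of transport, export, storage and receptor turnover, Abca1, Mylip and Soat1 were lower on day 1 than untreated over all epithelial cells, unlike most enzymes. Abca1, which pumps cholesterol onto apolipoproteins, stood at 24.7, 7.31, 8.94 and 7.997 CPM. On the CPM + 1 scale the untreated level was 3.09-fold the day 1 level. Mylip, a ligase that marks lipoprotein receptors for degradation, stood at 38.4, 28.7, 23.5 and 18.7 CPM, lower in each library than in the one named before it. Chief-like cells held 820 of its 2364 untreated UMIs, and day 1 had 9 such cells. The part of class makeup in these pooled Mylip values was not tested. Soat1, which esterifies cholesterol for storage, stood at 16.7, 10.7, 40.8 and 39.9 CPM, lowest on day 1. Stard4, a sterol carrier, stood at 16.9, 28.7, 23.5 and 25.9 CPM. Abcg1, an exporter, was scarce at 0.909, 2.42, 1.21 and 1.12 CPM.

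By count, 7 of the 28 genes were at least 2-fold higher on day 1 than untreated (Sqle, Lss, Cyp51, Hsd17b7, Srebf1, Srebf2 and Scap) and Abca1 was lower, where 16% of 21574 genes were higher and 1.78% lower. Their median log2 ratio was 0.70, against 0.32 over all genes. Much of this rested on the scale: with CPM taken after leaving out mitochondrial genes, ribosomal protein genes and the 20 other genes of highest count, 2 genes were higher and 1 lower against 10.5% and 3.93% of all genes, their median was 0.36 against 0.20 over all genes, and the share of called genes that were higher went from 90.0% to 72.7%. Day 3 against untreated gave 9 higher (Hmgcs1, Idi1, Sqle, Lss, Hsd17b7, Dhcr7, Insig1, Scap and Soat1, with Dhcr7 at 1.00) and Abca1 lower, against 10.5% and 0.952% of all genes; on the other scale 3 were higher and 2 lower, against 5.00% and 2.26% of all genes, and the higher share of called genes went from 91.7% to 68.8%. Day 3 against day 1 gave 2 higher, Dhcr7 (1.41) and Soat1 (1.83), and none lower, against 3.17% and 4.78% of all genes. AREG day 3 against day 3 gave none in either direction, against 0.051% and 0.232%. The comparisons share libraries and are not independent of each other.

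The day 1 picture differed by cell class. In parietal-like cells the 18 enzymes summed to 923 CPM untreated and 526 CPM on day 1, a log2 ratio of -0.81 (interval -0.89 to -0.73). In pit-like cells they summed to 1063 and 1729 CPM, a log2 ratio of 0.70 (interval 0.67 to 0.73). Thus the sum was lower in one class and higher in the other, in the same libraries.

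**Figure D2:**
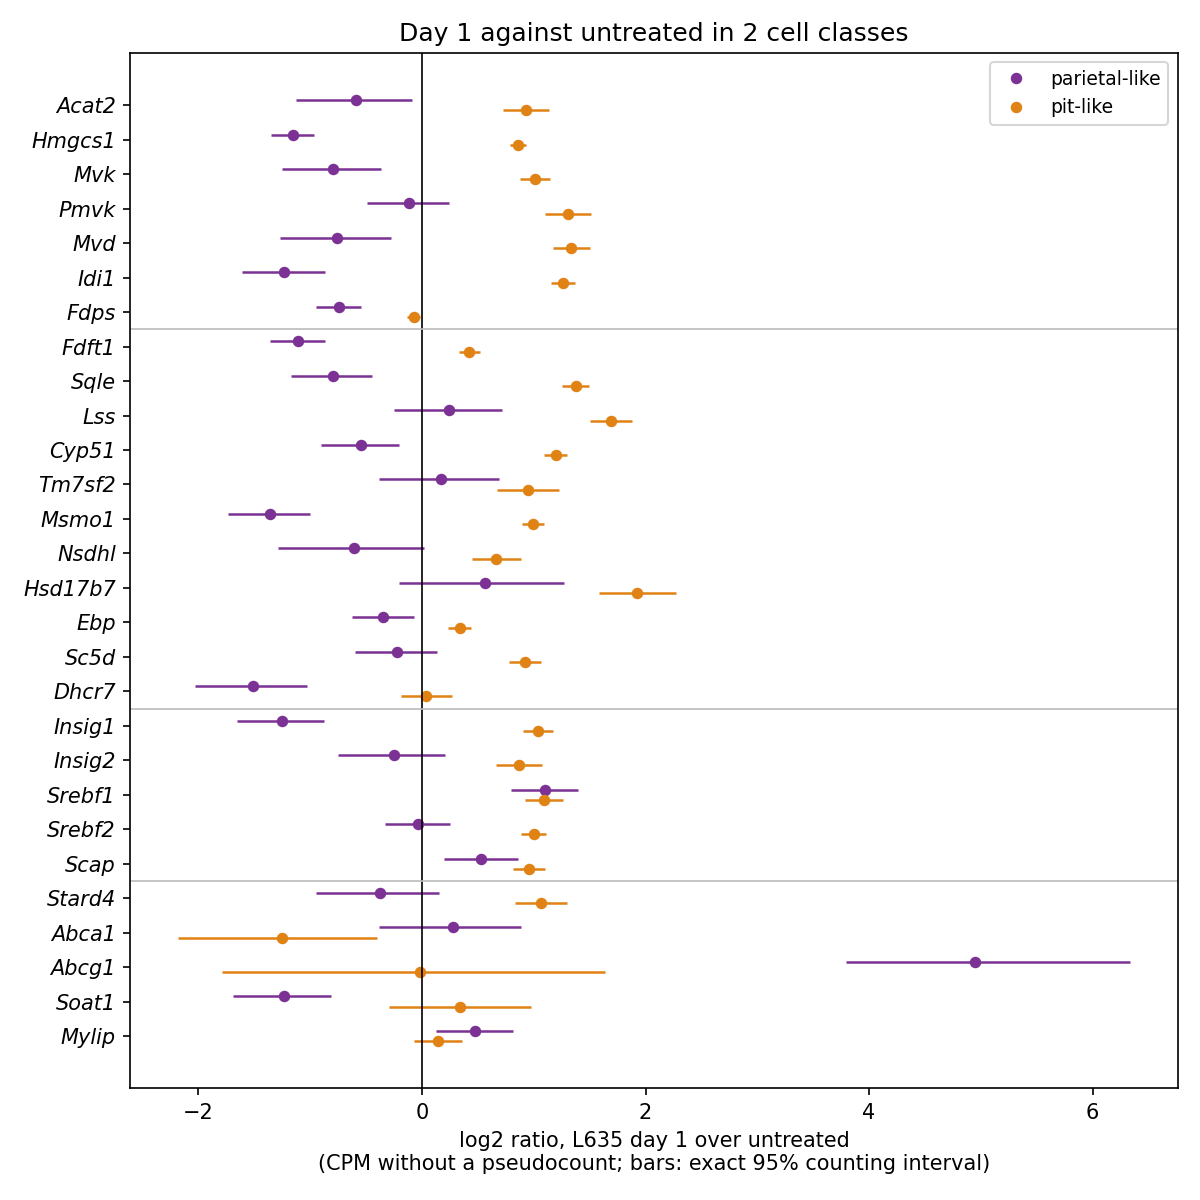
Log2 ratio of day 1 over untreated for each of the 28 genes in parietal-like (purple) and pit-like (orange) cells, from CPM without a pseudocount, with exact 95% counting intervals. Most enzymes lie left of 0 in parietal-like and right of 0 in pit-like cells, while Srebf1 lies right of 0 in both.

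Among parietal-like cells, 15 of 18 enzymes had a negative ratio and 12 had an interval wholly below 0; their median was -0.64, against 0.26 over all genes there. Of the 28 genes, 7 were at least 2-fold lower (Hmgcs1, Idi1, Fdft1, Msmo1, Dhcr7, Insig1 and Soat1) and 2 higher (Srebf1 and Abcg1), where 3.52% of 14176 genes were lower and 11.7% higher. Hmgcs1 stood at 198 CPM untreated and 88.6 CPM on day 1. Msmo1 stood at 61.4 and 23.9 CPM, and Dhcr7 at 38.1 and 13.4 CPM, with 23.7% of the 38 day 1 Dhcr7 UMIs in 1 cell. The genes of SREBP control differed in direction: Insig1 stood at 52.02 and 21.8 CPM, whereas Srebf1 stood at 23.03 and 49.2 CPM. Abcg1 stood at 0.548 and 16.9 CPM, from 48 UMIs on day 1 of which the richest cell held 6.25%. The day 1 cells came mostly from cluster 23 (248 of 304), led by Sprr1a, Obp2a, Hamp2 and Atp4a, and the untreated cells from clusters 8, 10 and 18. Parietal markers summed to 30594 CPM untreated and 17556 CPM on day 1. The day 1 cells were also deeper, with a mean of 9351 UMIs against 2915, so that a cell held 4.92 enzyme UMIs on day 1 and 2.69 untreated although their share of its UMIs was lower. In cells of 2000 to 8000 UMIs (85 on day 1 and 1790 untreated) the log2 ratio of the sum was -1.35; the part of depth and cluster in the result was not tested further.

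Among pit-like cells, 17 of 18 enzymes had a positive ratio and 16 had an interval wholly above 0; their median was 0.94, against 0.43 over all genes. Of the 28 genes, 10 were at least 2-fold higher (Pmvk, Mvd, Idi1, Sqle, Lss, Cyp51, Hsd17b7, Insig1, Srebf1 and Stard4) and none lower, where 16.9% of 15512 genes were higher and 1.26% lower. Idi1 stood at 55.6 CPM untreated and 133 CPM on day 1. Lss stood at 17.03 and 54.9 CPM, and Cyp51 at 60.4 and 138 CPM. Fdps was the exception, at 313 and 297 CPM. Cluster 16 held 931 of the 1114 day 1 cells, and clusters 4, 6 and 20 held most untreated cells. In cells of 2000 to 8000 UMIs the log2 ratio of the sum was 0.91; without the abundant genes named above it was 0.36. When every cell was thinned to 500 UMIs, a synthesis enzyme was seen in 40.6% (interval 39.1 to 42.1) of untreated and 56.1% (53.1 to 59.0) of day 1 pit-like cells, and in 31.8% (30.4 to 33.2) and 22.4% (17.8 to 27.5) of parietal-like cells. Unthinned, these shares were 81.0% and 93.4% in pit-like cells, with median depths of 2737.5 and 6985.5 UMIs, and 68.8% and 71.4% in parietal-like cells, with 1861 and 4510.5. The class with the lowest thinned share, untreated chief-like cells, had 5.33% at a median depth of 4864 UMIs.

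**Figure D3:**
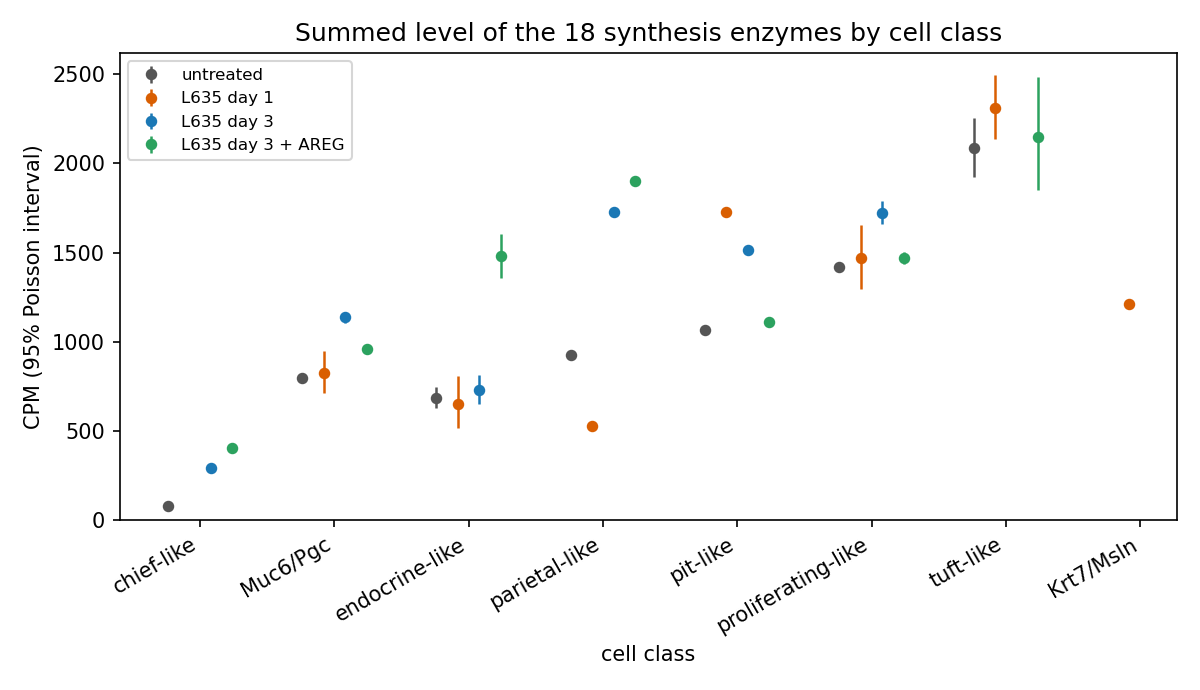
Summed CPM of the 18 synthesis enzymes (y axis, from 0) in each cell class with at least 20 cells (shallow Krt7/Msln cells not drawn), 1 point per library with its 95% Poisson interval. Parietal-like cells dip on day 1 and stand highest with AREG, pit-like cells peak on day 1, and chief-like cells lie lowest in each library that has them.

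By day 3 the parietal-like sum stood at 1726 CPM, 1.71 (log2) above day 1 and 0.90 above untreated. Of the 28 genes, 17 were at least 2-fold higher than on day 1 and 2 lower, where 5.82% of 15218 genes were higher and 8.37% lower. The 17 were 14 enzymes, with Idi1 (23.9 to 185 CPM), Dhcr7 (13.4 to 85.6 CPM) and Msmo1 (23.9 to 145 CPM) the furthest apart, together with Insig1, Stard4 and Soat1. The 2 lower genes were Srebf1 and Abcg1, which had been higher on day 1. Clusters 3, 5 and 21 held most of the day 3 cells of this class. Within clusters that had at least 20 cells in both libraries the sum was higher on day 3 too. It stood at 973 CPM untreated and 1520 CPM on day 3 in cluster 3, at 941 and 1496 CPM in cluster 8, at 651 and 2291 CPM in cluster 10 (27 cells on day 3) and at 1017 and 1539 CPM in cluster 18. Cluster 5, with 50 untreated cells, had the closest pair, 1415 and 1839 CPM. In pit-like cells the sum stood at 1513 CPM, -0.19 (log2) from day 1, and none of the 28 genes was 2-fold higher or lower, against 3.87% and 1.72% of 16775 genes. Pmvk was -0.98 and Insig1 0.60 (log2) from day 1 there.

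With amphiregulin the sum was lower in pit-like and slightly higher in parietal-like cells than on day 3 without it, both by less than 2-fold. Pit-like cells stood at 1513 CPM on day 3 and 1111 CPM with AREG, a log2 ratio of -0.45 (interval -0.47 to -0.42). All 18 enzymes had a negative ratio, 14 with an interval wholly below 0, and the median was -0.39 against -0.06 over all genes. Sqle stood at 107 and 64.03 CPM, Hmgcs1 at 289.6 and 202 CPM and Insig1 at 122 and 81.6 CPM. The sum was lower with AREG in each of the 3 largest pit-like clusters of these libraries: 1452 and 1011 CPM in cluster 1, 1596 and 1227 CPM in cluster 2, and 1425 and 1047 CPM in cluster 11. Srebf2 differed less, at 111 and 96.6 CPM.

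Parietal-like cells stood at 1726 and 1900.4 CPM, a log2 ratio of 0.14 (interval 0.12 to 0.16), with 17 of 18 enzymes positive and 10 intervals wholly above 0. The enzyme median was 0.12, against -0.006 over all genes. Idi1 stood at 185 and 229 CPM and Insig1 at 87.6 and 110.1 CPM; Ebp was the 1 enzyme with a negative ratio (-0.16). The Muc6/Pgc and proliferating-like sums had log2 ratios of -0.24 and -0.23, and the chief-like sum 0.46 (interval 0.34 to 0.58). The median over all genes in these classes, in the same order, was -0.06, -0.07 and 0.20. The difference between classes was not tested, since each class has 1 library per group.

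**Figure D4:**
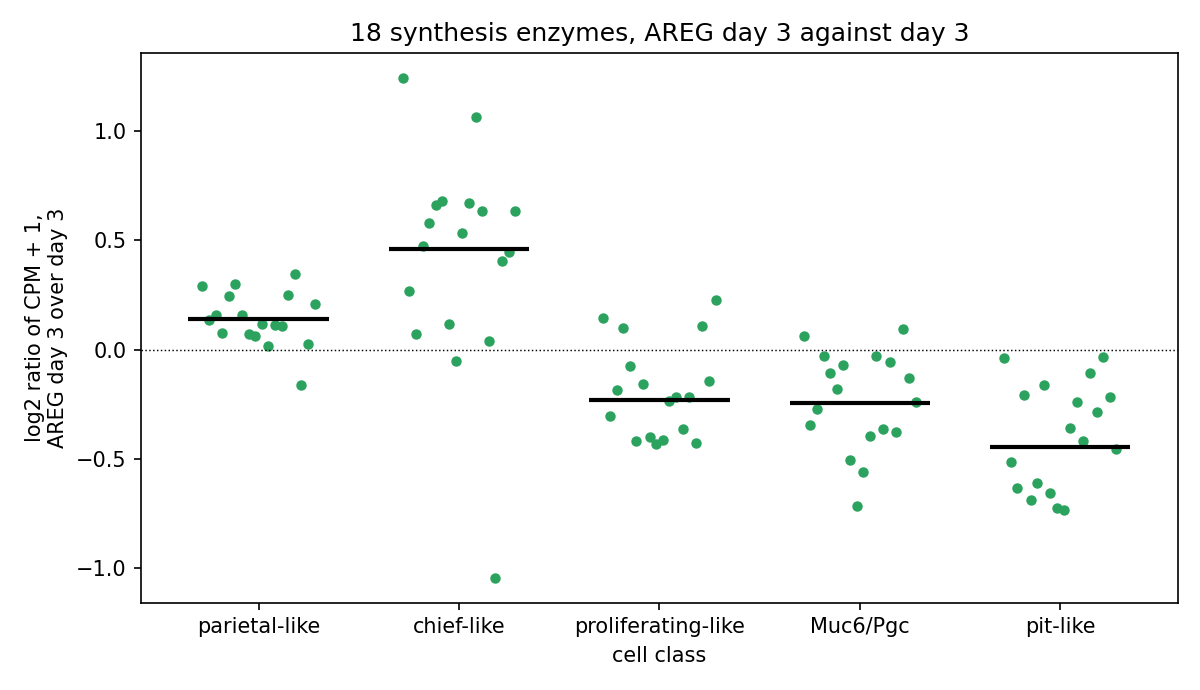
Log2 ratio of CPM + 1, AREG day 3 over day 3, for each of the 18 synthesis enzymes (points) and for their sum (black bar) in 5 cell classes. Every point of the pit-like cells lies below 0, and 17 of 18 points of the parietal-like cells lie above it.

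Across classes of the untreated library, the enzymes were lowest in chief-like and highest in tuft-like cells. Untreated chief-like cells had 77.5 CPM over the 18 enzymes, against 2086 CPM in the 126 untreated tuft-like cells. The chief-like sum stood at 293 CPM on day 3 and 404 CPM with AREG, from 0.65, 2.75 and 2.28 enzyme UMIs per cell. Cluster 12 held 1080 of the 1125 untreated cells. Cluster 15 held 313 of 340 cells on day 3 and 584 of 613 with AREG. Within cluster 12 the sum stood at 75.2 CPM untreated, 104 CPM on day 3 (18 UMIs) and 71.9 CPM with AREG (19 UMIs). Within cluster 15 it stood at 250 (interval 170 to 355), 304 (284 to 324) and 431 (409 to 454) CPM. The part of cluster makeup in the class values was not tested. After the same abundant genes, with Pgc, the pepsinogen C gene, among them, were taken out there remained 15.2%, 30.6% and 33.5% of the chief-like UMIs in untreated, day 3 and AREG cells; over the UMIs left, the sum was 511, 957 and 1205 CPM. Tuft-like sums were 2314 CPM on day 1 and 2150.1 CPM with AREG, from 52 and 45 cells; day 3 had fewer than 20 such cells. Without the abundant genes tuft-like cells stood at 3262 CPM untreated, near proliferating-like cells at 2959 CPM, and at 3118 CPM on day 1, below pit-like cells at 3603 CPM. Krt7/Msln cells of day 1 gave 1211 CPM, and no other library had 20 such cells. Shallow Krt7/Msln cells gave 1348 CPM on day 1, 1559 CPM untreated (31 cells) and 1394 CPM with AREG (25 cells).

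Abca1 and Mylip were ordered otherwise: in the untreated library both were highest in chief-like cells and next highest in Muc6/Pgc cells. Untreated chief-like cells had 86.9 CPM of Abca1 and 87.3 CPM of Mylip. Untreated Muc6/Pgc cells had 67.7 and 72.5 CPM, and pit-like cells 2.62 and 21.1 CPM. In chief-like cells Abca1 stood at 44.1 CPM on day 3 and 30.9 CPM with AREG, and Mylip at 61.9 and 46.2 CPM. Without the abundant genes, Abca1 stood at 573, 144 and 92.2 CPM and Mylip at 576, 202 and 138 CPM in untreated, day 3 and AREG chief-like cells, so both differed more on that scale. Over all UMIs within cluster 15, Abca1 stood at 96.9 CPM untreated (45 cells), 45.3 CPM on day 3 and 31.2 CPM with AREG. Within cluster 12 it stood at 86.7, 23.0 and 26.5 CPM, the last 2 from 27 and 29 cells and so from few UMIs. In Muc6/Pgc cells Abca1 stood at 67.7, 34.6, 24.3 and 18.03 CPM. The Muc6/Pgc cells came mostly from cluster 9 in the untreated library (1702 of 1867) and mostly from cluster 0 in the others (109 of 128 on day 1). Within cluster 0, Abca1 stood at 19.1, 15.4, 24.5 and 17.8 CPM. The untreated and day 1 values there come from 165 and 109 cells with medians of 843 and 888 UMIs, so from few Abca1 UMIs. They cannot show whether Abca1 differed within that cluster. Thinned to 500 UMIs, 4.98% of untreated chief-like cells showed Abca1 and 0.143% of untreated pit-like cells, a class at a median depth of 2737.5 UMIs; unthinned, 44.2% and 1.24%. The day 1 library held 9 chief-like cells, and with class makeup held at that of the untreated library (classes with 20 cells in every library, so without chief-like cells) Abca1 was not among the 2-fold lower genes of day 1. Mylip differed in direction by class without the abundant genes. It stood at 36.2 CPM untreated and 47.8 CPM on day 1 in parietal-like cells, and at 55.8 and 48.7 CPM in pit-like cells. In Muc6/Pgc cells it stood at 154 and 140 CPM (18 UMIs on day 1), and in proliferating-like cells at 61.3 and 27.1 CPM.

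Soat1 was spread differently. It stood at 40.7, 17.2, 74.8 and 70.4 CPM in parietal-like cells and at 17.8, 59.1 and 81.9 CPM in untreated, day 3 and AREG chief-like cells. Pit-like cells had at most 6.92 CPM. The log2 ratio of day 3 over untreated was 0.86 in parietal-like and 1.68 in chief-like cells, where the median over all genes was 0.18 and 1.01. Without the abundant genes Soat1 stood at 63.3 and 113 CPM in parietal-like and at 117 and 193 CPM in chief-like cells.

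**Figure D5:**
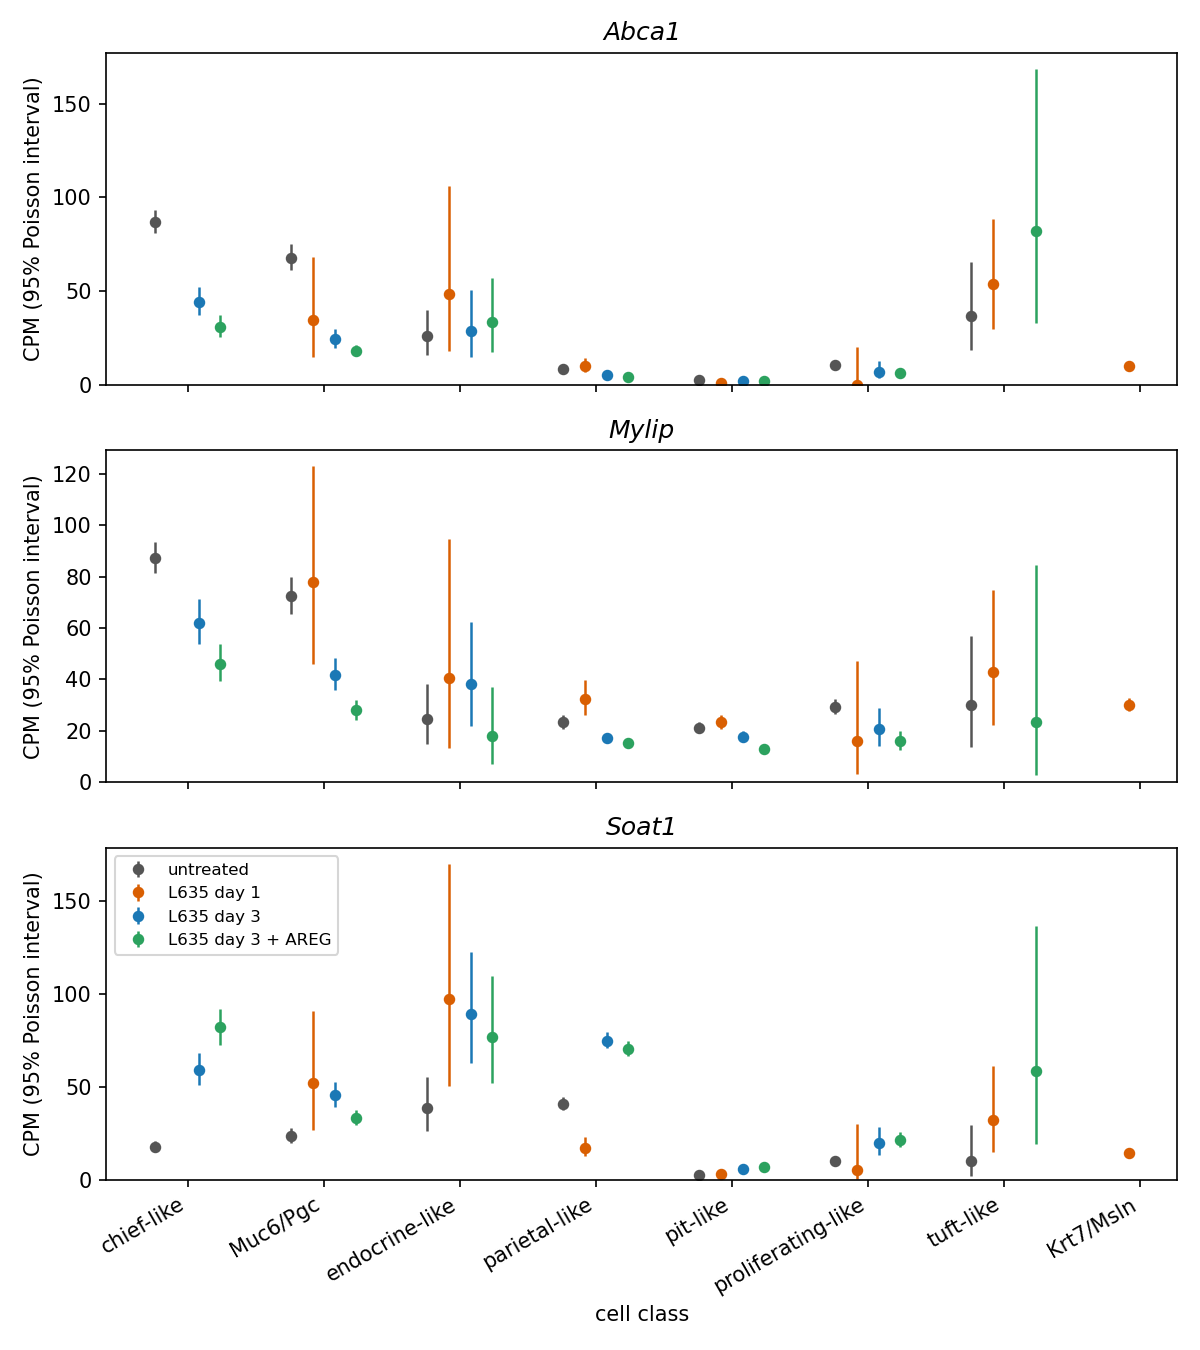
CPM (y axis, from 0) of Abca1, Mylip and Soat1 by cell class, 1 point per library with its 95% Poisson interval, for classes with at least 20 cells (shallow Krt7/Msln cells not drawn). In the untreated library Abca1 and Mylip stand highest in chief-like and Muc6/Pgc cells, and Soat1 is low in pit-like cells throughout.

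Over 24 points, each a class with at least 100 cells in a library, all 153 pairs of enzymes had a positive Spearman correlation of their levels (median 0.65, range 0.11 to 0.96). Points of a library share its depth and free RNA, and points of a class share their most abundant genes, so this is a description. Pairs of other genes were not correlated over these points. Whether the 153 positive pairs set the enzymes apart from other genes was thus not tested. With the sum of the enzymes (itself left out where it is one), Msmo1 had 0.94, Idi1 0.93 and Nsdhl 0.92, and Ebp the lowest enzyme value at 0.53. Srebf2 had 0.75, Insig1 0.72 and Stard4 0.65, against -0.65 for Mylip, -0.64 for Abcg1 and -0.54 for Abca1. The other genes lay between, with Scap at 0.54, Insig2 at 0.44, Srebf1 at 0.38 and Soat1 at -0.22. Abcg1 was scarce in these points too, with a median log2 of CPM + 1 of 0.98. In barcodes under 50 UMIs, which hold mostly free RNA, the enzymes summed to 828, 1308, 1438 and 1253 CPM, close to the cells of the same libraries.

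Other genes of lipid metabolism were read from 7 further lists. On day 1 against untreated over all epithelial cells, where 16% of all genes were 2-fold higher, 5 of 8 other lipoprotein receptor genes were higher and none lower: Lrp5 stood at 51.2 against 12.8 CPM and Lrp8 at 6.50 against 1.43 CPM. Of 13 measured genes of fatty acid synthesis, a branch known to follow SREBP1, 3 were higher and none lower: Acss2, Me1 and Fasn, with Fasn at 92.8 against 45.3 CPM. Of 10 measured sterol side pathway genes 3 were higher and 1 lower. Soat2 stood at 11.5 against 2.71 CPM and Acat1, the mitochondrial thiolase, at 82.6 against 203 CPM. Among 13 isoprenoid branch genes 2 were higher (Icmt and Nus1), among 13 late endosome and sterol carrier genes 1 (Vps35), among 8 LXR and RXR genes 1 (Abca7) and among 9 SREBP processing genes 1 (Mbtps2), with none lower in these 4 lists.

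On day 3 against untreated, where 10.5% of all genes were higher, fatty acid synthesis gave 6 of 13 higher, with Acss2 at 33.7 against 11.6 CPM and Scd2 at 80.2 against 31.8 CPM, and Elovl5 lower at 7.47 against 16.4 CPM. Other lipoprotein receptors gave 5 of 8 higher, with Lrp1 at 63.7 against 22.7 CPM and Vldlr at 18.9 against 7.01 CPM. Between day 1 and day 3, Vldlr went from 4.48 to 18.9 CPM and Lrp8 from 6.50 to 1.28 CPM. With AREG no gene of any of the 7 lists was 2-fold higher or lower than on day 3. The fatty acid synthesis list had a median log2 ratio of -0.18, against -0.03 over all genes, with 3 of 13 genes positive. Me1 stood at 86.8 against 120.4 CPM. The list values are over all epithelial cells, whose class makeup differed between libraries, and were not read within classes.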

How the data were processed

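For each of 4 libraries the authors deposited a matrix of UMI counts, genes by barcodes, not normalised. The build was GRCm39, per the submitters' processing notes. Which aligner was used is not given in the sources used here. Genes were matched by symbol. Barcodes with at least 500 UMIs, 200 genes and at most 50% mitochondrial UMIs were kept as cells; no doublet caller was run. Cells were scaled to 10000 UMIs and clustered on 2000 variable genes, 40 principal components and 15 neighbours (Leiden resolution 1, leidenalg 0.10.2, Python 3.11.15), leaving out the 28 genes and the other lipid lists. Clusters were named from marker lists, with a scoring rule chosen after the data were seen. Counts were summed per library and class, with values for classes of at least 20 cells and ratios for those with at least 100 in both libraries. Intervals are exact Poisson for levels, exact binomial for ratios and Clopper-Pearson for shares; scipy 1.17.1 gave them, and the ratio step was tested on simulated data. Each gene is described in each comparison at or past 2-fold, among the most abundant, or against the majority; list genes are the 3 with the largest ratio among those with at least 50 UMIs, some of which are counted but not reported by name here. The 28 genes and the lists were chosen with earlier results of these data known. Alternatives changed cell filters, scale, pseudocount, count filter, weighting, class makeup and resolution.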

Additional observations from a re-analysis of the deposited data

Results flagged for a closer look

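The summed enzymes moved in opposite directions in parietal-like and pit-like cells in 3 comparisons, each time with both counting intervals off 0. The difference between the classes was not tested, because each rests on 1 library per group. On day 1 against untreated the log2 ratio was -0.81 in parietal-like and 0.70 in pit-like cells. On day 3 against day 1 it was 1.71 and -0.19. On AREG day 3 against day 3 it was 0.14 and -0.45, the smallest pair. Different clusters held most of each class on day 1 and in the other libraries, as given with those values.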

How the results depend on the processing

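No paired analysis was possible because each group is 1 library, and for the same reason no replicate could be left out. Values are log2 ratios of the summed enzymes unless a median or count of the 28 genes is named. Of 224 recomputed values, 170 stayed within the counting interval (or, for counts, within 1.5 times) and 54 moved; no ratio whose interval lay off 0 changed sign, while the median of day 3 against day 1, -0.01 as reported, became 0.12 when class makeup was standardised. The cause of each move was not tested. Settings marked as added were chosen after seeing the data.

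With a pseudocount of 10 CPM, day 1 against untreated gave 2 genes higher and a median of 0.55, and day 3 against untreated 3 higher, 0 lower and a median of 0.57. Without mitochondrial, ribosomal protein and the 20 most abundant genes, day 1 against untreated gave 2 higher, a median of 0.36 and a sum of 0.16, day 3 against day 1 a sum of 0.17, and day 3 against untreated 3 higher, 2 lower, a median of 0.41 and a sum of 0.33; within classes (added), parietal-like cells gave 0.17 for AREG and 0.85 for day 3 against untreated, and pit-like cells 0.36 for day 1 against untreated, -0.16 for day 3 against day 1, -0.40 for AREG and 0.20 for day 3 against untreated.

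With class makeup held at that of the untreated library (parietal-like, pit-like, Muc6/Pgc, proliferating-like and endocrine-like cells), day 1 against untreated gave 4 higher, 0 lower, a median of 0.51 and a sum of 0.22, day 3 against day 1 gave 1 lower, a median of 0.12 and a sum of 0.32, AREG a sum of -0.18, and day 3 against untreated 5 higher, 0 lower and a sum of 0.54. With each cell given equal weight, the sums were 0.61 for day 1 against untreated, 0.10 for day 3 against day 1 with 1 gene lower, -0.21 for AREG and 0.71 for day 3 against untreated; within classes (added), parietal-like cells gave 1.91 for day 3 against day 1, 0.083 for AREG and 1.15 for day 3 against untreated, and pit-like cells 0.79 for day 1 against untreated and -0.30 for day 3 against day 1.

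With at most 20% mitochondrial UMIs the sums were 0.11 for day 3 against day 1, -0.13 for AREG and 0.63 for day 3 against untreated, and in parietal-like cells (added) 1.61 for day 3 against day 1 and 0.83 for day 3 against untreated. Without the 5% deepest cells of each library (added) the AREG sum was -0.18. Without the cells of unnamed clusters (added) the sums were 0.54 for day 1 against untreated and 0.12 for day 3 against day 1. In cells of 2000 to 8000 UMIs (added), parietal-like cells gave -1.35 for day 1 against untreated, 2.38 for day 3 against day 1, 0.10 for AREG and 1.02 for day 3 against untreated, and pit-like cells 0.91 for day 1 against untreated and -0.42 for day 3 against day 1. Few UMIs limit the day 1 values of Muc6/Pgc, proliferating-like and endocrine-like cells (35 to 171 cells) and the level of Abcg1.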
